A study of Mus musculus with 13 samples.

Results

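Fatty acid synthesis turns acetyl-CoA into saturated fatty acids, which are then elongated and desaturated. Acly makes cytosolic acetyl-CoA from citrate, Acaca carboxylates it to malonyl-CoA, and Fasn joins these units into palmitate. Me1 supplies NADPH for that chemistry. Elovl6 and Elovl5 lengthen fatty acids, Elovl6 acting on saturated and monounsaturated chains and Elovl5 mainly on polyunsaturated ones, and the desaturases Scd1 and Scd2 place a double bond in saturated chains. Srebf1 encodes a transcription factor that drives the pathway, and Thrsp is a lipogenic protein abundant in fat and liver. These 10 genes were described in mouse aorta, a vessel that is embedded in perivascular fat, over 12 circadian time points. All probe sets (groups of short oligonucleotides that read 1 transcript) that the platform annotation assigns to a member gene alone were taken, 13 of 12422 in the series. They covered 9 of the 10 genes, out of 8251 genes with a probe set of their own, and the level of Acaca was not analysed here. The members were chosen by name, with earlier results of these data known.

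The samples were aortae of c57/Bl6 mice that carried no named allele or treatment. The mice spent 2 weeks in a cycle of 12 h light and 12 h dark and then 36 h in constant darkness, and aortae were collected every 4 h. Each time point from CT18 to CT62 (CT is circadian time in h) was a single pool of 6 aortae on a one-colour array, so there were no replicate pools, and CT18 had a duplicate array, which was averaged with the first and counted as 1 pool. The 12 pools cover each of 6 circadian times on the first day (CT18 to CT38) and on the second day (CT42 to CT62), and CT12 to CT24 is the subjective night, when mice are normally active. Precision is limited by having 13 arrays.

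Markers of the vessel wall were checked first. Acta2, smooth muscle actin, had intensities of 3783 to 6848, and Cdh5, the cadherin of endothelial junctions, of 439.8 to 919. Other endothelial markers were dimmer. Cldn5, a tight junction protein, ran from 27.7, below the 36.7 taken as the lower limit of intensity, to 552, and Pecam1, an endothelial adhesion molecule, from 39.3 to 104. Markers of fat were present as well. Adipoq, the adipokine adiponectin, lay between 8123 and 9898.5, and Ucp1, the uncoupling protein of brown fat, between 5898 and 10110.5. In pooled tissue, fewer cells of a type and less RNA per cell cannot be told apart. The summed intensity of 5 smooth muscle markers ran from 12193 at CT62 to 20865.5 at CT26 (1.71-fold). That of 6 endothelial markers ran from 1145 at CT62 to 2188 at CT26 (1.91-fold). Sums for neighbouring tissues varied more between pools, from 3.18-fold for atrium to 11.5-fold for thymocytes. The summed intensity of 10 measured skeletal muscle markers ran from 5799 at CT54 to 30629 at CT34, that of 6 thymocyte markers from 362 at CT42 to 4174 at CT54, and that of 6 atrial markers from 3865 at CT30 to 12297 at CT42.

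The promoters of Elovl5 and Acly, the members whose rhythm passed the threshold below, are shown with that of Fasn, an enzyme downstream of Acly that did not pass. They are 300-base windows from RefSeq on mouse assembly GRCm38.p6, from 250 bases before the annotated start to 50 bases after it, printed 5′ to 3′ on the gene's strand. Capitals mark matches to the motifs searched on both strands.
Elovl5, chr9:77917115-77917414, plus strand: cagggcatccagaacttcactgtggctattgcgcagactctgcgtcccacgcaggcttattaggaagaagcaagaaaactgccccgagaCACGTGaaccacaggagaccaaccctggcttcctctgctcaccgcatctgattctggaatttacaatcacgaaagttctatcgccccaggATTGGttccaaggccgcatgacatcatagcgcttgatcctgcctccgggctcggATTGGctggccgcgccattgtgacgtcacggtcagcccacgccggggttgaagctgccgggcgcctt
Acly, chr11:100527951-100528250, minus strand: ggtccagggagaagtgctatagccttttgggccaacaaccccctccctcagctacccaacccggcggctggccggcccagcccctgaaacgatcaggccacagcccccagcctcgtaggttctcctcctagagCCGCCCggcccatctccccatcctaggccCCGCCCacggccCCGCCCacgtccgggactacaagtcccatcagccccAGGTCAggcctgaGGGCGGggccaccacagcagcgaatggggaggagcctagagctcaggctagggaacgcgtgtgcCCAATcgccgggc
Fasn, chr11:120824498-120824797, minus strand: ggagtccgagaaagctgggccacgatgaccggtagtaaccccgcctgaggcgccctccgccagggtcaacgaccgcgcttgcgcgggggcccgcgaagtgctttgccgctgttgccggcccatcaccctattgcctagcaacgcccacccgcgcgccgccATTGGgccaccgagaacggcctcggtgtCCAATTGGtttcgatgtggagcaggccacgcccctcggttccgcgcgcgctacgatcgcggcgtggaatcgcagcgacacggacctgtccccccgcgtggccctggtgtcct

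The Elovl5 window held an E-box (CACGTG, the site bound by the clock's activator complex) starting 161 bases before the start, and 2 NF-Y boxes (CCAAT, read as ATTGG). The Acly window held 4 GC boxes (GGGCGG, read as CCGCCC on the other strand), a nuclear receptor motif (AGGTCA) and an NF-Y box. The Fasn window held 3 NF-Y boxes, of which the pair starting 62 and 59 bases before the start overlap. Of the 11 windows given for 8 member genes, Acaca included, 1 held an E-box, against 7.15% of 32851 mouse promoters. An NF-Y box was in 7 of the 11 (37.4% of all promoters), a GC box in 4 (35.7%), AGGTCA in 2 (16.3%), and a sterol regulatory element (TCACNCCAC, 1.24%) or D-box (TTATGNAA, 3.38%) in 0. These matches describe the letters of the windows. Scd1 and Scd2 had no window in the table.

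Intensities were put on a log2 scale, and a 24-h cosine was fitted to the 12 pools of each probe set with limma. The amplitude is the distance from mean to peak in log2 units, given ± the SE of the fit, and the adjusted p is Benjamini-Hochberg over the 7453 probe sets that passed a filter on low intensity, with a threshold of 0.05. Of the 13 member probe sets 12 passed that filter; the other, 94058_r_at of Scd1, was at 3.99 to 60.9 and is not described further. Over all probe sets 0.349% passed for a 24-h rhythm. Among the members 2 of 12 passed, Elovl5 and Acly. An unadjusted p below 0.05 was found for 5 of 12 (Elovl5, Acly, Me1 and both Scd2 probe sets), against 9.96% of all probe sets. Since the members were chosen with earlier results of these data known, these counts are a description. The count of 2 was 0 with no intensity filter, with arrays centred on their medians and on linear intensities, and 4 without CT38. Among all probe sets 26 passed in the main fit, 4 of 12422 with no filter, 5 with median centring and 22 without CT38. The median amplitude was 0.22 over the 12 and 0.18 over all probe sets.

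**Figure D1:**
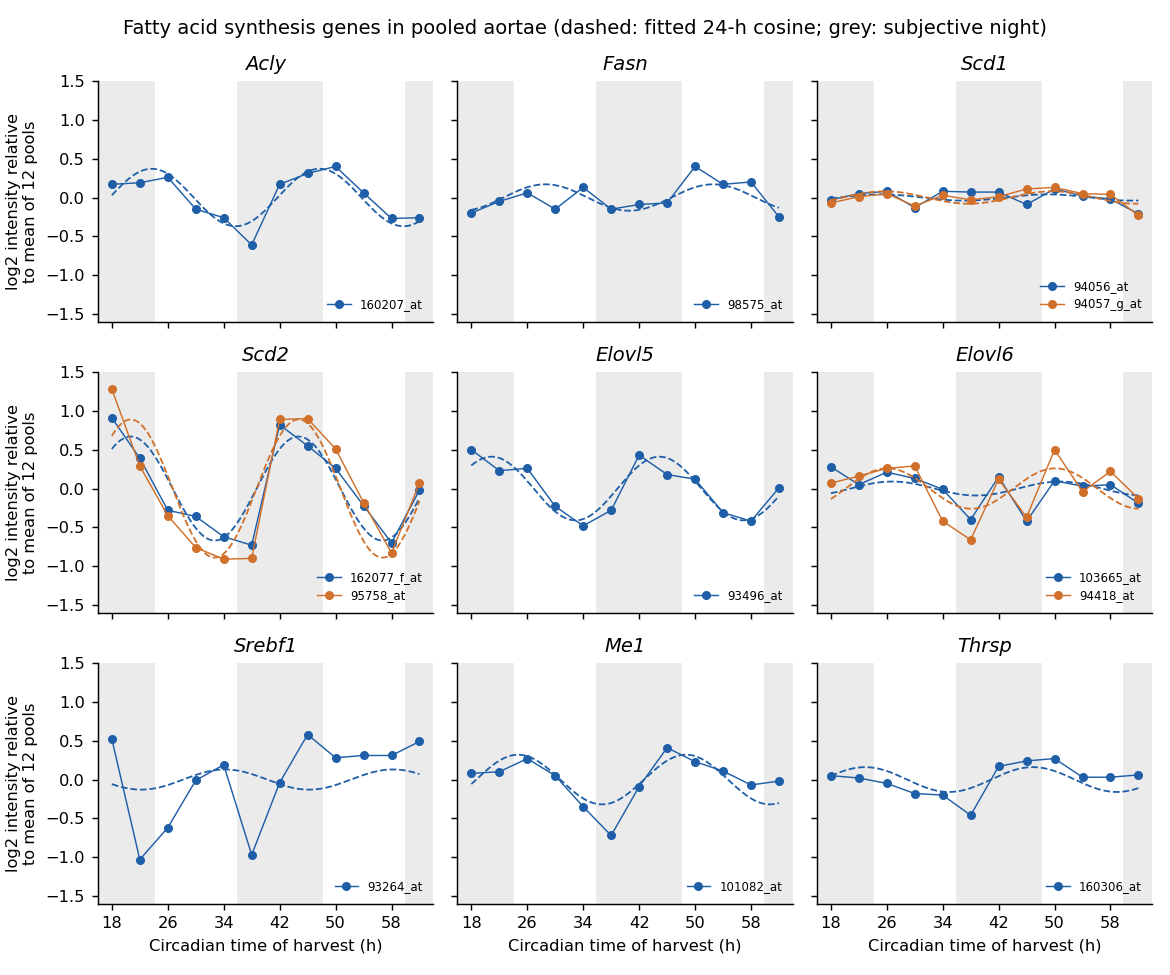
Log2 intensity relative to the mean of the 12 pools (y) by circadian time of harvest in h (x) for the 9 measured genes, with 2 colours where a gene has 2 probe sets. Points are single pools (CT18 the mean of 2 arrays), dashed lines the fitted 24-h cosine and grey the subjective night. Scd2 spans 2.20 log2 units (95758_at), while the Scd1 probe sets span 0.32 and 0.36.

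Elovl5 (93496_at) was highest at circadian time 18 on both days. It measured 2360.2 and 2368 on the CT18 arrays, 1965 at CT22, 2001 at CT26, 1427 at CT30, 1204 at CT34 and 1383 at CT38. On the second day it measured 2259.5 at CT42, 1894 at CT46, 1817 at CT50, 1349 at CT54, 1248 at CT58 and 1683 at CT62. The high and low pools of the first day were matched by the pools 24 h later, and no pair of pools 24 h apart differed by more than 0.28 log2 units. At circadian time 18 it averaged 2312 ± 74.1, which is 1.89-fold the 1226 ± 31.4 of circadian time 10 (SD, n = 2 pools each). The fitted amplitude was 0.41 ± 0.06 with a peak at CT20.9 ± 0.6 h (SE), and limma gave an adjusted p of 0.0402. Omitting each time point or each CT18 array in turn gave an adjusted p of 0.0299 to 0.115, below the threshold in 7 of 14 fits. Omitting CT38 gave 0.0359 and omitting CT18 gave 0.0645.

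Acly (160207_at) was highest at the end of the subjective night and the start of the subjective day. Its intensities were 6818 and 6216 on the CT18 arrays, 6639 at CT22, 6923 at CT26, 5238 at CT30, 4846 at CT34 and 3789 at CT38. From CT42 to CT62 they were 6506, 7199, 7641, 6042, 4811 and 4839.7. The 3 pools from CT30 to CT38 and the last 3 pools were all below the pools of circadian times 18, 22 and 2. The average was 7282 ± 508 at circadian time 2 and 4314 ± 743 at circadian time 14 (SD, n = 2 each), a ratio of 1.69. The amplitude was 0.37 ± 0.06 with a peak at CT23.7 ± 0.6 h, and limma gave an adjusted p of 0.0457. On the same omissions it passed in 3 of 14 fits, with adjusted p from 0.0359 to 0.123.

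Scd2 had the largest fitted amplitude of the members in both of its probe sets, and neither passed the adjusted threshold. By 95758_at it measured 4109.8 and 4703 on the CT18 arrays, 2219 at CT22, 1415 at CT26, 1066 at CT30, 959.9 at CT34 and 969 at CT38. On the second day it measured 3349 at CT42, 3372 at CT46, 2583 at CT50, 1596 at CT54, 1020.4 at CT58 and 1893 at CT62. The profile declined over 16 h after CT18, stayed low until CT38 and was 3.46-fold higher in the next pool, CT42. The mean at circadian time 18 was 3878 ± 748, which is 3.92-fold the 990.2 ± 42.7 of circadian time 10 (SD, n = 2 each). The amplitude was 0.89 ± 0.16 with a peak at CT20.7 ± 0.7 h, and limma gave an adjusted p of 0.0823.

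The other Scd2 probe set, 162077_f_at, whose name carries the mark for probes that may also read related transcripts, gave the same order of high and low circadian times at its extremes. It averaged 2149 ± 90.3 at circadian time 18 and 747 ± 31.5 at circadian time 10 (SD, n = 2 each). Its amplitude was 0.67 ± 0.12 and its peak also CT20.7, with an adjusted p of 0.0679 by limma. Without CT38 both Scd2 probe sets passed (adjusted p = 0.0447 for 95758_at and 0.0285 for 162077_f_at), which raised the member count to 4, and they passed in no other alternative. A 12-h component on top of the 24-h cosine had an unadjusted p of 0.0313 for 162077_f_at (amplitude 0.29 ± 0.09, adjusted p = 0.883) and of 0.172 for 95758_at. The pools on either side of the CT38 to CT42 step both had high atrial marker sums (11745.5 and 12297), while thymocyte markers summed to 3958 at CT38 and 362 at CT42; their part in the step was not tested.

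Scd1 showed no such profile. Its probe set 94056_at lay between 16398 and 20518 on the 13 arrays, and 94057_g_at between 14547 and 18661. The amplitudes were 0.04 ± 0.05 and 0.08 ± 0.04, with adjusted p of 0.926 and 0.70 by limma. A probe set of Scd1 gave the highest intensity of all probe sets on 13 of 13 arrays, and the files hold no mark for saturated signals, so a smaller measured range at the top of the scale was not tested.

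The difference between the desaturases was tested directly on the log2 difference of the brightest probe sets. A shift equal for both probe sets of an array cancels in it. Tissue content of the pools need not shift both equally, and its part in the pair differences was not tested. The 24-h amplitude of Scd1 minus Scd2 was 0.87 ± 0.21, with its highest point at CT8.5 (R2 = 0.665). A one-sided permutation test over the 12 pools gave p = 0.0126, and 0.0126 after adjustment over the 3 pairs tested. The difference relative to its mean was -1.31 at CT18, 0.99 at CT34, -0.99 at CT46 and 0.81 at CT58. The measured difference lay on opposite sides of its mean in the pools of circadian times 18 and 10. The part in it of a smaller measured range of Scd1 at the top of the scale was not tested.

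The elongases also differed. Elovl6 lay between 1612 and 2646 by 103665_at and between 808 and 1799 by 94418_at, and its pools did not repeat from day to day at circadian time 22, where CT46 was 1612 and CT22 was 2231 by 103665_at. The amplitudes were 0.09 ± 0.09 and 0.26 ± 0.11, with adjusted p of 0.855 and 0.598 by limma. The pair test used 103665_at, the brighter Elovl6 probe set, and 94418_at, which had the larger amplitude, was not tested against Elovl5. The difference Elovl5 minus Elovl6 peaked at CT20.0 with an amplitude of 0.42 ± 0.06 (R2 = 0.843, permutation p = 0.00053, adjusted 0.00159). Relative to its mean it was 0.60 log2 units at CT46, 0.18 at CT22, the pool 24 h earlier, and -0.47 at both CT34 and CT58. At CT46 Elovl6 by 103665_at was -0.42 and Elovl5 0.18 relative to their own means.

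Fasn (98575_at) measured 9429.6 and 8988 on the CT18 arrays, 10234 at CT22, 11025 at CT26, 9515 at CT30, 11541 at CT34 and 9533 at CT38. From CT42 to CT62 it measured 9965, 10069, 13997, 11929, 12178 and 8897. Its highest pool was CT50 and its lowest CT62. By circadian time the mean was lowest at 14 (9215 ± 450.05) and next lowest at 18 (9587 ± 535, SD, n = 2 each). Acly at 18, in contrast, averaged 6512 ± 7.76, above its means at 6, 10 and 14. That SD understates the spread, since the CT18 value was itself the mean of arrays at 6818 and 6216. The amplitude was 0.17 ± 0.06 with a fitted peak at CT4.6 ± 1.4 h (adjusted p = 0.527 by limma). The difference Acly minus Fasn peaked at CT21.9 with an amplitude of 0.36 ± 0.07 (R2 = 0.760, permutation p = 0.00323, adjusted 0.00484). All 3 pair differences kept an adjusted permutation p below the threshold in each of 18 alternatives, with the highest at 0.0318. Moving the floor or centring arrays on their medians left the differences unchanged, so those alternatives could not alter the result. Of the 18 alternatives 14 omitted a time point or a CT18 array, and none adjusted for tissue markers.

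**Figure D2:**
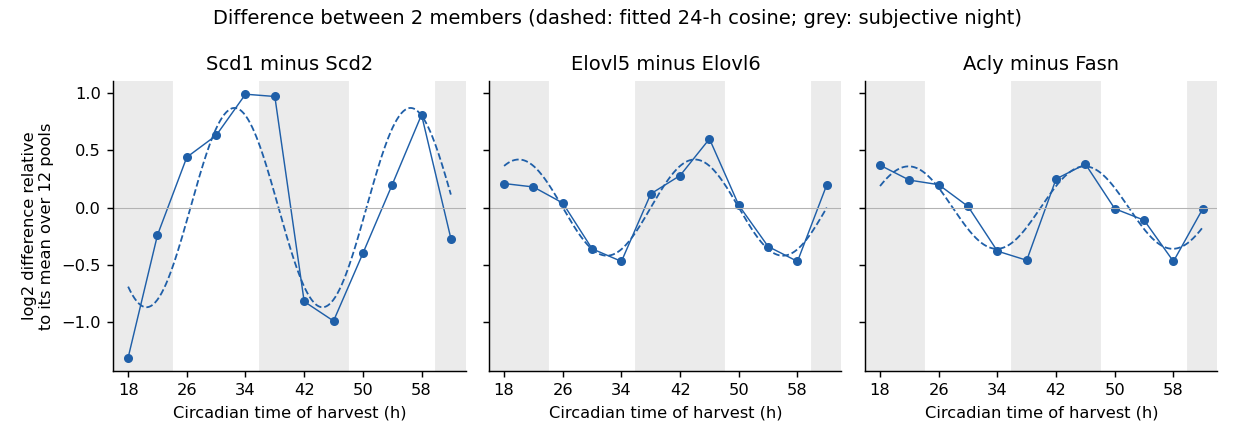
Log2 difference between the brightest probe sets of 2 members, relative to its mean over the 12 pools (y), by circadian time of harvest in h (x). Points are pools, dashed lines the fitted 24-h cosine and grey the subjective night. Scd1 minus Scd2 runs from -1.31 at CT18 to 0.99 at CT34, and the other differences stay within 0.60 of their mean.

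Me1 (101082_at) measured 3142 and 2574 on the CT18 arrays, 2882 at CT22, 3236 at CT26, 2777 at CT30, 2113 at CT34 and 1632 at CT38. On the second day it measured 2525, 3581, 3155, 2908, 2566 and 2652 from CT42 to CT62. The CT18 arrays differed by 0.29 log2 units, close to the fitted amplitude of 0.32 ± 0.08 (peak CT0.7 ± 0.9 h, adjusted p = 0.232 by limma). Thrsp (160306_at) lay between 6649 at CT38 and 11016 at CT50. Its amplitude was 0.16 ± 0.07, with a peak at CT22.9 ± 1.7 h and an adjusted p of 0.617. Neither gene passed the threshold.

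Srebf1 (93264_at) did not repeat between the days. It measured 2372 and 1889 on the CT18 arrays, 721 at CT22, 956 at CT26, 1462 at CT30, 1685 at CT34 and 753 at CT38. On the second day it measured 1436 at CT42, 2195 at CT46, 1788 at CT50, 1828 at CT54, 1822 at CT58 and 2065 at CT62. At circadian time 22 the second day was 1.61 log2 units above the first, and at circadian time 18 it was on the other side of it (-0.57). The 24-h amplitude was 0.13 ± 0.21 (adjusted p = 0.945 by limma). Its 24-h fit explained the smallest share of variance among the 12 member probe sets (R2 = 0.030).

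**Figure D3:**
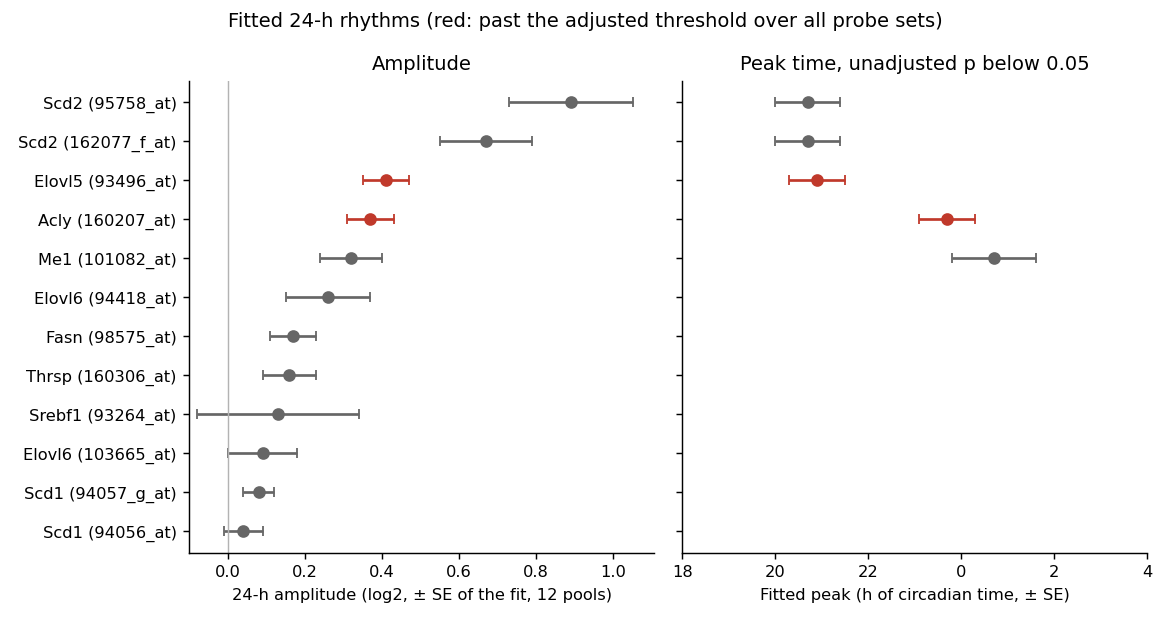
Fitted 24-h amplitude in log2 units (left, ± SE of the fit over 12 pools) and fitted peak in h of circadian time (right, ± SE) of the 12 member probe sets, ordered by amplitude, with peaks drawn where the unadjusted p was below 0.05. Red marks Elovl5 and Acly, which passed the adjusted threshold. The 5 peaks drawn, with both Scd2 probe sets among them, lie between CT20.7 and CT0.7. Of all probe sets with an unadjusted p below 0.05, 42% peaked from CT18 to CT2.

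Later pools came from mice held longer in darkness, so the 2 days were compared. With limma 0 of 12 member probe sets passed, as did 0% of all probe sets, and the lowest adjusted p of a member was 0.563. At an unadjusted p below 0.05 there were 3 of 12 members, against 7.54% of all probe sets. In 6 of 6 pairs of pools 24 h apart, Thrsp had its higher value in the later pool. Its log2 mean was 13.29 on the second day and 13.02 on the first, a difference of 0.27 ± 0.07 (unadjusted p = 0.00158, adjusted p = 0.563). Srebf1 differed by 0.64 ± 0.26 (5 of 6 pairs, adjusted p = 0.640) and Scd2 by 0.45 ± 0.20 by 95758_at (5 of 6 pairs, adjusted p = 0.653). The other Scd2 probe set, 162077_f_at, differed by 0.23 ± 0.16 (4 of 6 pairs, adjusted p = 0.763).

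Of the 12 probe sets 9 had a positive fitted difference, against 43.4% of all probe sets, with a median of 0.13 against -0.03. Elovl5 differed by 0.00 ± 0.09. A difference in 24-h rhythm between the days was called by limma in 0 of 12 members and 0% of all probe sets, with 0 of 12 members and 6.98% of all probe sets at an unadjusted p below 0.05. A 12-h component was called in 0 of 12 members and 0% of all, with 1 of 12 and 5.60% at an unadjusted p below 0.05.

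**Figure D4:**
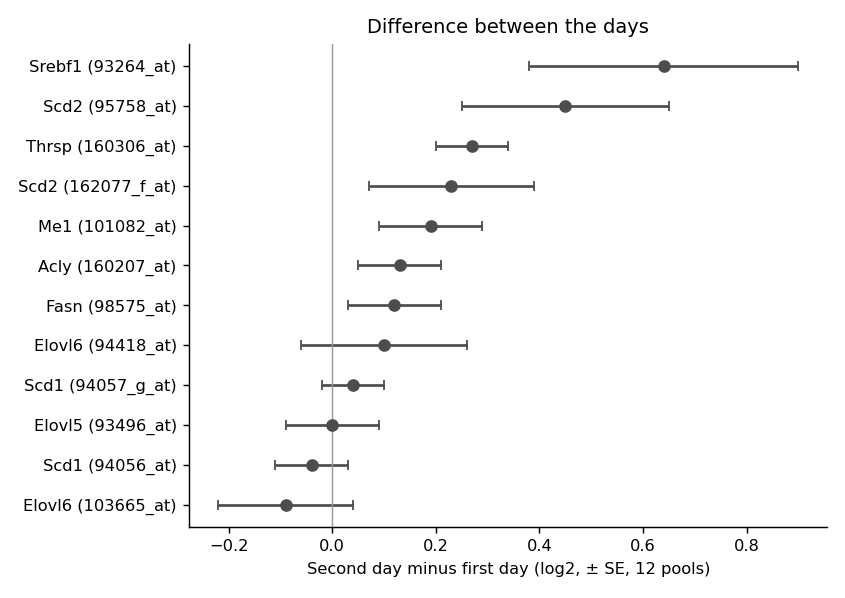
Second day minus first day in log2 units (x, ± SE of the fit over 12 pools) for the 12 member probe sets, with a line at 0. Srebf1 has the largest difference (0.64 ± 0.26) and Elovl6 by 103665_at the lowest (-0.09 ± 0.13); none passed the adjusted threshold.

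Levels of the members were set beside those of fat and of neighbouring tissues in the same pools. The summed intensity of 12 of 15 adipocyte markers, in which the brightest weigh most, ran from 47819 at CT18 to 60006 at CT58. Some single markers varied more widely. Lep, the adipokine leptin, ran from 107 to 648, Cidec, a lipid droplet protein, from 955 to 2191, and Lipe, hormone-sensitive lipase, from 1245 to 2712. The slope of each member on the mean log2 profile of the adipocyte markers was tested with limma, and 0 of 12 members passed (0% of all probe sets, and 0 of 12 members against 9.96% of all at an unadjusted p below 0.05). The slopes had wide errors, such as -0.62 ± 2.20 for Scd2 and 2.45 ± 1.48 for Srebf1, since the marker mean itself spanned only -0.14 to 0.18. With the adipocyte mean as a covariate of the rhythm, Acly passed (limma, adjusted p = 0.0496) and Elovl5 had an adjusted p of 0.0522. With skeletal muscle, thymocyte and atrial marker means as covariates, 0 of 12 members passed, with an amplitude of 0.29 ± 0.08 for Acly (adjusted p = 0.298) and 0.44 ± 0.08 for Elovl5 (adjusted p = 0.151). Without covariates the amplitudes were 0.37 ± 0.06 and 0.41 ± 0.06. The fit with muscle, thymocyte and atrial covariates had fewer residual degrees of freedom than the 9 of the fit without covariates. Why no member passed in it was not tested, and neither was the part of neighbouring tissues in the rhythms. Vessel wall markers were not used as covariates. CT18 and CT34, which had the highest skeletal muscle marker sums (24208 and 30629), were the highest and the lowest pools of both Scd2 by 95758_at and Elovl5.

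CT38, whose atrial marker sum was 11745.5 and thymocyte sum 3958, was the lowest pool of 5 of the 12 member probe sets, and CT50 was the highest of 6. Of all 7453 probe sets, 7.53% were lowest at CT38 and 8.29% highest at CT50. Without CT38 and CT42, the 2 pools with most atrial signal, Acly had an amplitude of 0.32 ± 0.05 and Elovl5 of 0.39 ± 0.07. Without CT18, CT34 and CT58, the 3 pools highest in skeletal muscle markers, the amplitudes were 0.41 ± 0.07 and 0.35 ± 0.08. In neither fit, each on fewer pools than the main fit, did a member pass the adjusted threshold.

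**Figure D5:**
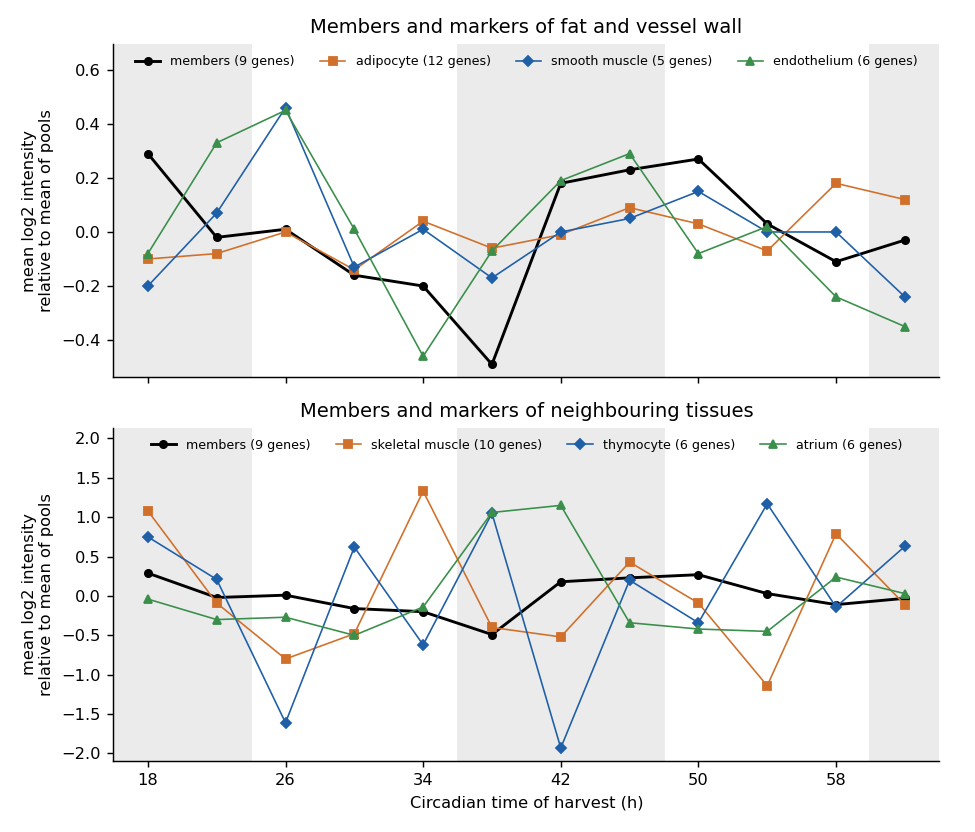
Mean log2 intensity relative to the mean of the pools (y) by circadian time of harvest in h (x), for the 9 members and for markers of fat and vessel wall (top) and of neighbouring tissues (bottom). Points are pools, grey is the subjective night, and legends give the number of genes. The adipocyte mean stays between -0.14 and 0.18, while the skeletal muscle mean runs from -1.14 to 1.33.

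Other genes of the pathway were taken from lists by role, each by its brightest probe set. These lists too were chosen with earlier results of these data known. Over all 5655 genes 0.389% passed for a 24-h rhythm and 10.1% had an unadjusted p below 0.05. Of 7 measured genes that supply precursors and NADPH, 0 passed by limma and 5 had an unadjusted p below 0.05. The lowest were Slc25a1, the mitochondrial citrate carrier (amplitude 0.31 ± 0.08, peak CT1.7, adjusted p = 0.260), and Pgd, an NADPH-producing enzyme of the pentose phosphate pathway (0.57 ± 0.16, CT23.4, adjusted p = 0.330). Of 7 control genes 0 passed and 2 had an unadjusted p below 0.05, Nr1h3, the liver X receptor alpha (0.29 ± 0.08, CT11.1), and Mid1ip1, a relative of Thrsp that activates acetyl-CoA carboxylase (0.62 ± 0.20, CT17.6).

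Of 9 other elongation and desaturation genes 0 passed and 2 had an unadjusted p below 0.05. These were Acsl5, which activates long-chain fatty acids (0.40 ± 0.11, CT23.8), and Cyb5r3, the reductase of cytochrome b5 (0.22 ± 0.07, CT1.4). Of 9 genes of glyceride assembly 1 passed, Dgat1, which completes triglycerides, and 5 had an unadjusted p below 0.05. The amplitude of Dgat1 was 0.39 ± 0.06 with a peak at CT9.2 (adjusted p = 0.0460), near circadian time 10, at which the means of Elovl5 and Scd2 were lowest. Of 12 cholesterol synthesis genes, taken as a comparison list, 1 passed, Fdps (0.49 ± 0.08, CT23.3, adjusted p = 0.0484), and 6 had an unadjusted p below 0.05. The median amplitude was 0.41 in that list, 0.17 over the 9 members by gene and 0.18 over all genes; the difference between the lists was not tested.

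The genes most like a member over the 12 pools were named by Pearson correlation of log2 intensity, as a description of pools that share array and tissue. For Acly they were Pgd (0.93) and 2 probe sets of Fdps (0.92 each). For Elovl5 they were Nudt4 (0.96), a phosphatase of diphosphoinositol polyphosphates, Mdfic (0.93) and Cct5 (0.93), a subunit of a cytosolic chaperonin. For Fasn they were Aldoa, a glycolytic aldolase, Gnas, a G protein alpha subunit, and Mlycd, which degrades malonyl-CoA (0.88 each). For Scd1 they were Cbr2 (0.87), Arpc5l (0.86) and Cntn1 (0.84).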

How the data were processed

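The deposited values are intensities on a linear scale, 1 per probe set and array. The sources used here do not name the software. With 2% of values trimmed from either end, array means were 198 to 198.4, so the authors' scaling was kept, and 66 control probe sets were left out. The platform annotation gave 1 gene to 10833 of 12422 probe sets, several to 396, and did not list 1193; 10817 gene identifiers matched RefSeq, with 0 symbols changed.

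Intensities below 36.7, the 20th percentile of positive values, were set to that floor, where 36.8% to 39.6% of an array's probe sets lay. After log2, CT18 arrays were averaged, and probe sets with a mean below the 40th percentile (log2 5.60) were left out. limma 3.58.1 in R 4.3.3 fitted the cosine and sine of 24 h (9 residual degrees of freedom; eBayes with an intensity trend). Terms for day, 12 h, rhythm by day and adipocyte markers followed in the same way. Pair differences used 100000 permutations of the pools. The limma p-values rest on the spread of single pools around a fitted model, moderated over probe sets. The permutation p-values rest on the order of the pools. Neither rests on replicate pools or single mice. Tested on simulated data of 7453 probe sets, the 24-h fit recovered 20% of 100 rhythms of amplitude 0.4 and 74% of 100 of amplitude 0.8. It made 9 false calls among the probe sets left without a rhythm. The simulated noise was independent between probe sets, and tissue content shared by a pool was not simulated.

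Members and lists were chosen with earlier results of these data known. All members were named, with list genes past the threshold or else the 2 of each list with the smallest p. The 3 probe sets most like each of 4 members were named too. Single markers of fat and vessel wall were given as examples from the marker lists, outside these rules.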

Additional observations from a re-analysis of the deposited data

How the results depend on the processing

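The number of member probe sets with a 24-h rhythm past the adjusted threshold was 2. It was 1 with the floor at the 10th percentile, with quantile normalization and with adipocyte markers as a covariate. It was 0 with no intensity filter, with arrays centred on their medians, without the intensity trend in the variance, on linear intensities, with covariates for muscle, thymocyte and atrial markers, and, in 2 alternatives chosen after seeing the data, without CT18, CT34 and CT58 and without CT38 and CT42. Omitting each time point or each CT18 array in turn gave 0 to 4, with 4 (Acly, Elovl5 and both Scd2 probe sets) without CT38, and 0 without CT18, CT34, CT42, CT50, CT54, CT58 or CT62. Calls among all probe sets changed as well. They were 26 in the main fit, 4 with no filter, 4 without the trend, 5 with median centring and 27 with quantile normalization. They were 22 without CT38, 10 without CT18, 10 without CT34 and 9 without CT42. With no filter 12422 probe sets were tested instead of 7453, and the unadjusted p was also higher (0.000207 for Elovl5 and 0.000486 for Acly, against 7.54e-05 and 0.000129). The cause of these changes was not tested. The log2 amplitude stayed between 0.35 and 0.46 for Elovl5 and between 0.29 and 0.41 for Acly over 26 alternatives, of which 12 and 7 passed. The counts for the 12-h, rhythm-by-day and adipocyte tests were 0 in all 22 alternatives of each. With arrays centred on their medians, 591 of all 7453 probe sets passed the adipocyte test, against 0 in the main fit. The count for the day was 0 in all 23 alternatives. The last of these, chosen after seeing the data, compared pools 24 h apart with circadian time as a block, and its lowest adjusted p of a member was 0.579. The pair differences passed in all 18 alternatives of each, among them the floor and median settings, which left these differences unchanged. By replicate number, no paired analysis was possible because the time points share only 1 number. Single pools limit every p-value.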
